A study of Arabidopsis thaliana with 9 samples.

Results

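The clade A protein phosphatases 2C (PP2C) of Arabidopsis thaliana are the 9 genes ABI1 (AT4G26080), ABI2 (AT5G57050), HAB1 (AT1G72770), HAB2 (AT1G17550), PP2CA (AT3G11410), AHG1 (AT5G51760), HAI1 (AT5G59220), HAI2 (AT1G07430) and HAI3 (AT2G29380). They were chosen by locus as a gene family, with earlier results of these data known. All 9 were found among the 27444 nuclear protein-coding genes of the gene table. For each of them, every peak of NAC103, a transcription factor of the NAC family, was taken that overlapped the gene or the 1000 bp on either side of it, a stretch called its window here. The windows held 28 ChIP peaks and 19 DAP peaks.

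NAC103 binding was profiled by chromatin immunoprecipitation (ChIP) in 3 replicates and by DNA affinity purification (DAP) in 2 replicates. ChIP used whole 5-day-old seedlings of the genotype 35S:NAC103-GFP, in which the strong viral 35S promoter drives a fusion of NAC103 to green fluorescent protein. For 24 h before harvest they were given the proteasome inhibitor MG132 at 20 µM, because NAC103 is otherwise degraded and scarce according to the series design. In DAP a NAC103-Halo protein was bound to bare genomic DNA of untreated Col seedlings of the same age, so neither chromatin nor MG132 was involved. Each ChIP replicate had its own input of the same genotype and treatment, and the DAP replicates shared 1 input. The labels do not say how many transgenic lines were used or whether replicates were separate cultures, so the spread between replicates may be technical. Without an untagged ChIP, which was not used here, NAC103 binding cannot be told apart from signal of the GFP tag, of the antibody or of accessible chromatin.

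Abscisic acid is the plant hormone of drought, seed dormancy and germination. Clade A PP2Cs are its negative regulators: without the hormone they dephosphorylate and silence SnRK2 kinases, and with it the PYR/PYL receptors bind and inhibit them, which frees the kinases to act on ABF and ABI5 transcription factors and on ion channels of guard cells such as SLAC1. The clade falls into a group with ABI1, ABI2, HAB1 and HAB2 and a group with PP2CA, AHG1 and the HAI genes. Several of the PP2C genes are themselves induced by abscisic acid, which makes them a feedback brake on the pathway.

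The 5 peak lists held 4187, 14318 and 17074 nuclear peaks in ChIP replicates 1, 2 and 3 and 20746 and 20962 in DAP replicates 1 and 2. The lists give no read totals, and the library depth is unknown. Fold is the authors' enrichment at a peak's summit over background, a ratio, and it was compared only within a list, as a percentile among that list's nuclear peaks. A region is the union of overlapping peaks of 1 assay. It was called reproducible with a peak in at least 2 of the 3 ChIP replicates, or in both DAP replicates, and there were 9501 such ChIP regions and 18082 such DAP regions.

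NAC103 had a reproducible ChIP region at 7 of the 9 genes: ABI1, HAB1, HAB2, PP2CA, AHG1, HAI1 and HAI2. By the same rule, 39.6% of all coding genes had one. A reproducible DAP region stood at 5 genes, ABI1, HAB1, PP2CA, AHG1 and HAI3, and this share of 55.6% was close to the 59.9% of all coding genes. Regions of both assays were present at 4 genes, ABI1, HAB1, PP2CA and AHG1 (44.4%, against 25.2% of all coding genes). HAB2, HAI1 and HAI2 had reproducible regions in ChIP alone, HAI3 in DAP alone and ABI2 in neither assay. Of the 27444 coding genes, 10865 had a ChIP region, 16436 a DAP region, 6909 both and 7052 neither. A region in 1 assay alone, or in neither, was thus not particular to this family. PP2C genes ran from 1676 to 3380 bp with a median of 2462 bp, against 2078 bp for all coding genes, and a longer window can meet a peak more readily. Among the 12374 coding genes of that range of lengths, 43.6% had a ChIP region, 61.9% a DAP region and 28% both. With 9 genes that share a lineage, no test of these counts was made, and they describe these lists.

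**Figure D1:**
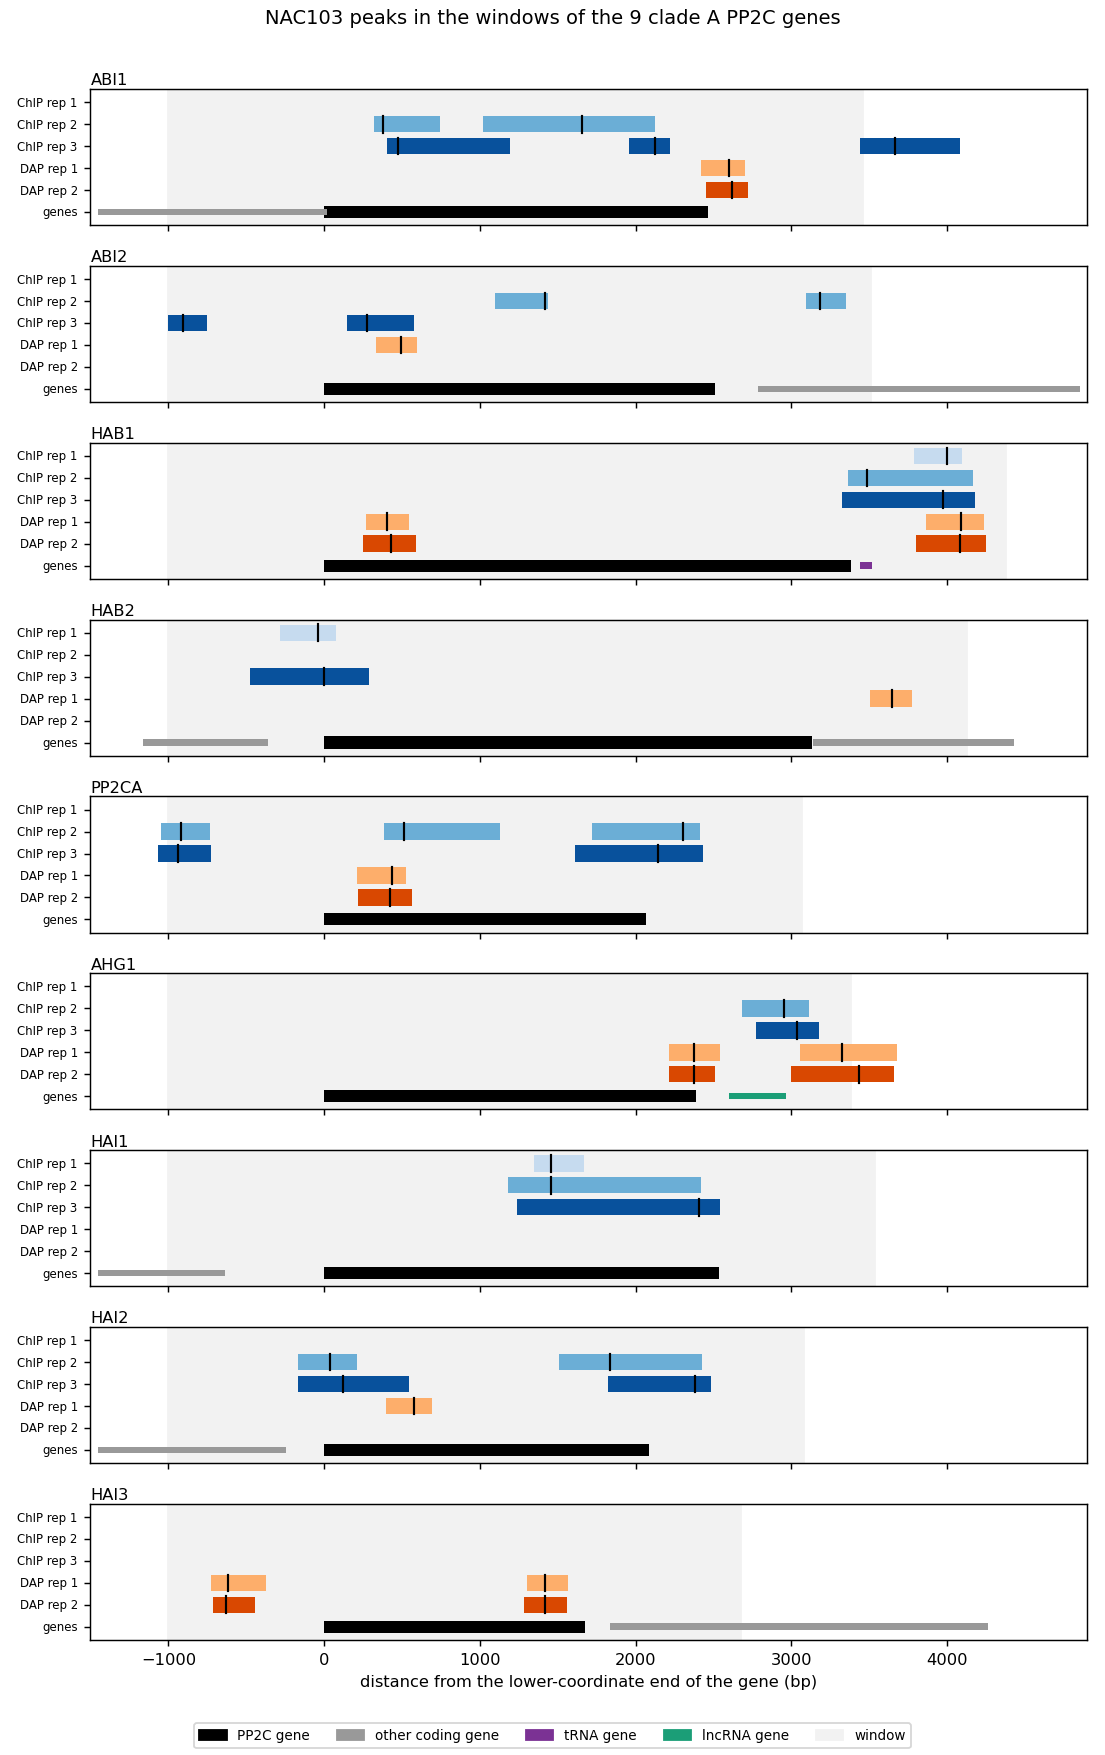
Peaks in the window of each gene, by distance in bp from the gene's lower-coordinate end. Coloured bars are peaks of ChIP replicates 1 to 3 and DAP replicates 1 and 2, black ticks their summits, the black bar is the PP2C gene and thinner bars are other genes, clipped at the edges of the panel. ChIP and DAP peaks overlap in reproducible regions at HAB1 and AHG1, ChIP peaks stand alone at HAI1, and HAI3 has DAP peaks only.

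The counts rest on which ChIP lists hold a peak. Replicate 1, the shortest list, had a peak in the windows of 3 genes, HAB1, HAB2 and HAI1, replicate 2 in 7 and replicate 3 in 8, where 17%, 50.8% and 59.7% of all coding genes had one. In DAP, replicate 1 had a peak at 8 genes and replicate 2 at 5, against 64.4% and 64.7% of coding genes. A region with a peak in all 3 ChIP replicates was found at HAB1 and HAI1, against 13.6% of coding genes. Without replicate 2 the ChIP regions at HAB1, HAB2 and HAI1 were left (15.9% of coding genes), and without replicate 3 those at HAB1 and HAI1 (13.8%). The −log10 q reached 10 in 0 of 3 ChIP peaks of replicate 1, 0 of 12 of replicate 2 and 9 of 13 of replicate 3. In the DAP lists it did so in 8 of 11 and 7 of 8. Its median over all nuclear peaks was 4.04, 4.23 and 6.81 in ChIP replicates 1, 2 and 3. In DAP replicates 1 and 2 it was 22.1 and 21.8. A cut-off of 10 thus lies above the median of each ChIP list and below that of each DAP list. When only peaks of at least 10 were used, no PP2C gene kept a reproducible ChIP region, where 5.44% of coding genes did.

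HAB1, whose loss makes seedlings hypersensitive to abscisic acid, was the PP2C gene at which the assays met most closely. Its ChIP region on chromosome 1, 27393271 to 27394127 (TAIR10), had a peak in each replicate, with folds of 1.85, 2.45 and 3.53 in replicates 1, 2 and 3. These folds stood at percentiles of 34.6, 79.9 and 88.2 in their lists, so that replicate 1 was low and the others high. The DAP region there, 27393750 to 27394198, had folds of 5.04 and 5.53, at percentiles of 90.0 and 92.8, the strongest of all peaks of either DAP list in the PP2C windows. The ChIP region began inside HAB1, with 6.65% of its length there, and the DAP region lay wholly past the gene's higher-coordinate end. The ChIP summits of replicates 1 and 3 stood 621 and 596 bp beyond it and the DAP summits 709 and 701 bp beyond it. In ChIP replicate 2 the summit was 108 bp beyond the end and inside AT1G72780, a tRNA gene of 82 bp that begins 57 bp past HAB1. ChIP summits of replicates 1 and 3 were thus 80 to 113 bp from the DAP summits and that of replicate 2 was 593 and 601 bp away. A second DAP region lay inside HAB1, near the other end, with folds of 2.45 and 2.71 and no ChIP peak.

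HAB2, the closest relative of HAB1, shared little of this pattern. Its ChIP region lay at the lower-coordinate end of the gene, on chromosome 1, 6033793 to 6034555, with summits 40 and 3 bp outside it. The folds were 2.06 in replicate 1 and 5.05 in replicate 3, and replicate 2 had no peak there. At a percentile of 99.0 in its list, the replicate 3 peak had the highest fold percentile of any peak in the 9 windows, whereas the replicate 1 peak stood at 64.9. The stretch between HAB2 and the next gene, AT1G17545, is 361 bp long, and the region reached into both genes. In DAP, replicate 1 had a single peak of fold 2.26 past the opposite end, with its summit inside HLL, a gene that starts 6 bp beyond HAB2, and replicate 2 had none in the window.

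ABI1 and ABI2, found through dominant mutants insensitive to abscisic acid, formed the weaker pair. At ABI1 the peaks of ChIP replicates 2 and 3 joined into a wide region inside the gene, on chromosome 4, 13220234 to 13222135, which spans 1902 bp, against a median of 579 bp for all reproducible ChIP regions. The strongest peaks within it had folds of 2.46 and 2.205, at percentiles of 80.3 and 33.3, and their summits were 467 bp apart. The weaker peaks of replicates 2 and 3 in the region overlapped each other, with folds of 2.05 and 2.14. Their summits stood 375 and 471 bp inside the lower-coordinate end of the gene. A stronger replicate 3 peak of fold 3.63 touched the window by its edge alone, with its summit 1202 bp past the gene, and had no counterpart in the other replicates. The DAP region at ABI1, 13222336 to 13222636, crossed the higher-coordinate end with folds of 1.89 and 1.93, at percentiles of 9.17 and 12.1, and began 201 bp after the end of the ChIP region. ABI2 had 2 peaks in ChIP replicate 2, of folds 1.73 and 1.89, and 2 in replicate 3, of folds 2.45 and 2.37, but no peak of one replicate overlapped a peak of the other. A peak of fold 1.87 in DAP replicate 1 overlapped 1 of the replicate 3 peaks, and DAP replicate 2 had its nearest peak 9024 bp from the gene.

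PP2CA, a phosphatase of seeds and guard cells also known as AHG3, had the best-ranked ChIP regions of the family by mean percentile over the lists with a peak. One lay across its higher-coordinate end on chromosome 3, 3585390 to 3586212, with folds of 2.57 and 3.87 in ChIP replicates 2 and 3, at percentiles of 84.9 and 93.1. The other lay outside the lower-coordinate end, 3582717 to 3583056, with folds of 2.44 and 3.79 and summits 918 and 941 bp from the gene. Their mean percentiles were 89.0 ± 5.79 and 85.8 ± 8.78 (SD, n = 2), and 6.87% and 10.01% of all reproducible ChIP regions ranked higher. A list without a peak does not lower this mean, whereas HAI1 and HAB1 were averaged with their lower replicate 1 peaks. Over replicates 2 and 3 alone, HAI1 had a mean percentile of 89.12 and HAB1 of 84.05, so PP2CA did not stand above HAI1. ChIP replicate 1 had no peak in the window, the nearest being 1729 bp away. The DAP region of PP2CA stood apart from both, inside the gene, 3583994 to 3584346, with folds of 2.80 and 2.98 at the middle of their lists (percentiles of 52.7 and 60.1). A replicate 2 ChIP peak of fold 2.602 overlapped it, with summits 81 and 91 bp apart, but replicates 1 and 3 had no peak at that place, so PP2CA was not counted among genes with overlapping regions.

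AHG1, a PP2C that acts mainly in seeds and resists inhibition by the receptors, had a ChIP region past its higher-coordinate end on chromosome 5, 21029490 to 21029983. Its folds were 2.22 and 4.41 in ChIP replicates 2 and 3, at percentiles of 64.9 and 97.1, and replicate 1 had its nearest peak 9688 bp away. The region overlaps a noncoding RNA gene, AT5G07815, and the replicate 2 summit lies inside it. A DAP region, 21029804 to 21030485, overlapped the ChIP region at its edge by 180 bp, with folds of 2.09 and 2.35 and summits 291 to 478 bp from the ChIP summits. The other DAP region sat at the gene end itself, 21029016 to 21029348, with folds of 2.67 and 2.17 and the same summit position in both replicates. No ChIP peak overlapped that one.

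The 3 HAI genes, named for their strong induction by abscisic acid, differed from each other. HAI1, also known as the senescence gene SAG113, had a ChIP peak in each replicate, with folds of 2.09, 2.598 and 3.82 at percentiles of 69.2, 85.7 and 92.5, all above the middle of their lists. The region, on chromosome 5, 23895584 to 23896942, covered the higher-coordinate part of the gene and 99.8% of it lay inside HAI1. Summits of replicates 1 and 2 were 2 bp apart, and that of replicate 3 was 952 and 954 bp from them, near the gene end. In DAP, HAI1 had no peak in its window in either replicate, and the nearest stood 3981 and 3970 bp away.

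HAI2, a phosphatase that interacts with the potassium channel AKT1 and acts in seed dormancy, had a ChIP region at each end of the gene. Folds at the lower-coordinate end, on chromosome 1, 2280575 to 2281290, were 2.24 and 3.80 in ChIP replicates 2 and 3. At the higher-coordinate end, 2282252 to 2283229, they were 2.08 and 3.09. Replicate 1 had no peak in the window, with the nearest 2807 bp away, and DAP gave 1 peak, of fold 2.26, in replicate 1 only. That DAP peak overlapped the ChIP replicate 3 peak at the lower-coordinate end by 149 bp, with summits 452 bp apart. HAI3 was the reverse: none of the 3 ChIP lists had a peak in its window, and the nearest stood 15348, 2251 and 2034 bp from the gene in replicates 1, 2 and 3. DAP marked HAI3 in both replicates, outside the lower-coordinate end with folds of 2.76 and 2.71 (chromosome 2, 12607947 to 12608303) and inside the gene with folds of 2.43 and 2.21 (12609957 to 12610240). HAI2 and HAI3 each lie beside a gene of sterol methyl oxidation, SMO2-1 at 243 bp and SMO2-2 at 157 bp, and no peak of either window overlapped those genes.

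**Figure D2:**
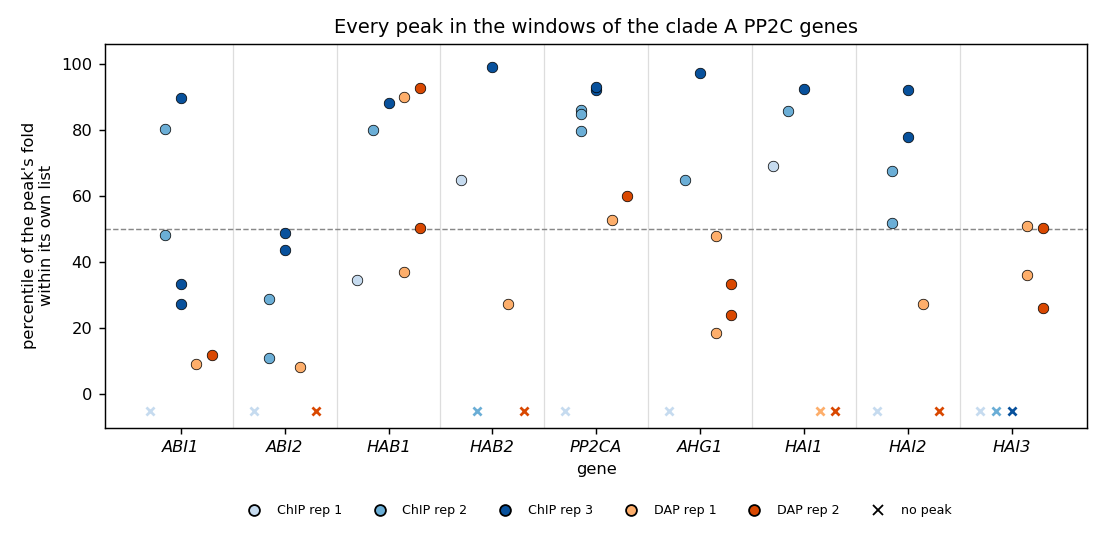
Each point is a peak in the window of a gene, placed by the percentile of its fold among the nuclear peaks of its own list, and crosses below 0 mark lists with no peak. The highest point of ChIP replicate 3 is above 80 at 7 genes, among them HAB2 at 99.0 and AHG1 at 97.1, but at ABI1 it is the peak at 89.7 whose summit lies outside the window and the other ABI1 points of that list are at 27.4 and 33.3, while most DAP points lie below or near the dashed line at 50 apart from those of HAB1 at 90.0 and 92.8.

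Strength and place differed between the assays across the family. The 9 reproducible ChIP regions of the PP2C genes had mean percentiles of 56.8 to 89.0 with a median of 81.0, beside a median of 57.2 over all reproducible ChIP regions. For the 8 DAP regions the range was 10.6 to 91.4 and the median 39.9, beside 56.0 over all reproducible DAP regions. The distance between the outermost replicate summits of a region ran from 23 to 954 bp in the ChIP regions and from 0 to 104 bp in the DAP regions, while the medians over all reproducible regions were 103 bp in ChIP and 9 bp in DAP. A reproducible ChIP region overlapped a reproducible DAP region at HAB1 and AHG1 (22.2% of the genes, against 13.2% of coding genes). Among coding genes in the PP2C range of lengths, 14.8% had such an overlap. With an overlap of 50% of each region, or with region summits within 100 bp, neither HAB1 nor AHG1 was counted. The share of coding genes under these stricter rules was not computed.

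The pileup of reads under each summit could be recovered from the fold and the p-value, under an assumption about how MACS2 forms them. The ChIP peaks of the PP2C windows rested on 62 to 75 reads in replicate 1, 46 to 65 in replicate 2 and 44 to 102 in replicate 3. Their backgrounds were 32.6 to 35.3, 23.1 to 26.1 and 19.4 to 23.3 reads. The DAP peaks rested on 89 to 242 and 96 to 277 reads over backgrounds of 47.2 and 49.3. Within each DAP list the recovered background was the same at all these peaks, so their folds differed by pileup alone. HAB1 held the highest DAP pileups and HAB2 the highest ChIP pileup, 102 reads in replicate 3. Where ChIP had no peak, as at HAI3, an enrichment too small to be called at this depth is not told apart from none.

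The PP2C genes can be set beside the genes they work with. Of 25 other genes of the pathway, 13 (52%) had a ChIP region, 8 (32%) a DAP region and 4 (16%) both. The shares of all coding genes were 39.6%, 59.9% and 25.2%. Among the 14 receptors 8 (57.1%) had a ChIP region and 4 (28.6%) a DAP region. Of the 3 SnRK2 kinases the counts were 2 and 2 (66.7% each), and of the 7 transcription factors 2 and 1 (28.6% and 14.3%). Regions of both assays stood at the receptor genes PYL5 and PYL7, the kinase gene SnRK2.3 and the anion channel gene SLAC1. PYL5 had ChIP folds of 2.75, 3.68 and 4.95, at percentiles of 97.3, 98.0 and 98.8, and DAP folds of 2.88 and 2.71. PYL7 had ChIP percentiles of 26.4, 74.7 and 33.4 in replicates 1, 2 and 3 and DAP percentiles of 98.7 in both replicates. SLAC1 had ChIP percentiles of 16.9, 16.1 and 46.2 and DAP percentiles of 96.9 and 94.7.

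Of 12 other genes that the gene table names as PP2C, 9 had a ChIP region, 11 a DAP region and 7 a ChIP region that overlapped a DAP region. The shares were 75%, 91.7% and 58.3%, against 39.6%, 59.9% and 13.2% of all coding genes. Among the 7 with overlapping regions, the highest mean percentiles over the lists were those of PLL4 (86.8), AT4G33920 (84.1), a member of PP2C clade D, and AT5G66080 (82.8), of the same clade. The last value covers ChIP lists alone, because the DAP region that overlaps its ChIP region lay outside its window, and the other means cover both assays. This list holds only genes whose names contain the term, and a high ChIP share was not limited to clade A, with 77.8% of clade A genes beside 75% of these. The difference between the lists was not tested.

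**Figure D3:**
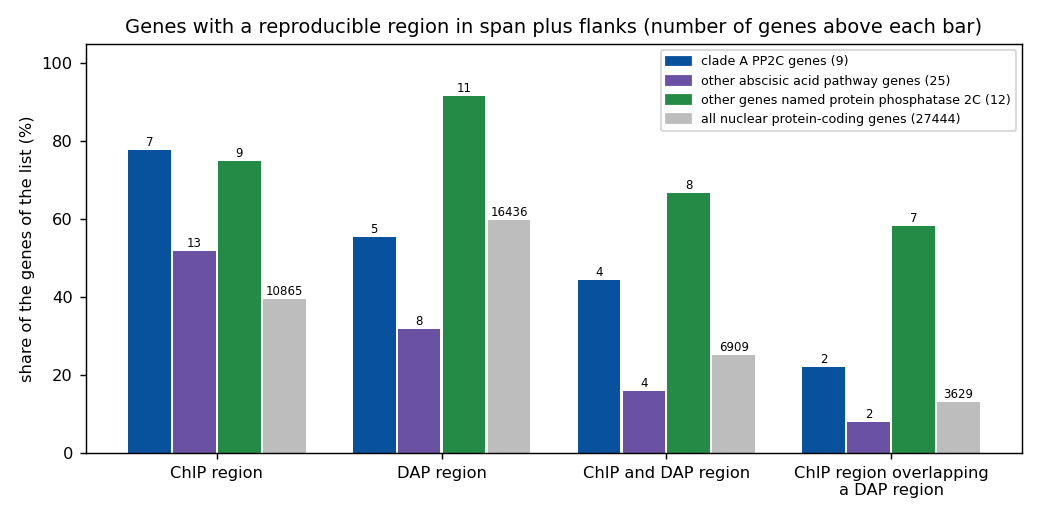
Share in percent of the genes of 4 lists with a reproducible region in the gene or within 1000 bp of it, with the number of genes above each bar. For clade A the bars are 77.8% for ChIP, 55.6% for DAP, 44.4% for both and 22.2% for overlapping regions, against 39.6%, 59.9%, 25.2% and 13.2% of all coding genes.

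The genes most like a PP2C gene were sought over the fold percentiles of the strongest peak in each list, among genes with peaks in the same lists. For HAB1, compared over 5 lists, AT1G72790 came first, 0.723 percentile points away on average. It is a neighbour, and its strongest peak was the same peak as that of HAB1 in 4 of the 5 lists, so that likeness comes from shared peaks. FRB1 followed (1.72 points). For ABI1, over 4 lists, AT5G24570 and AT5G24575 tied at 1.74 points, and these have the same strongest peak in all 4 lists and count as 1 place. PP2CA was closest to AT5G10540 (1.90) and MGP3 (2.59), and AHG1 to AT3G09630 (4.07) and AT1G62530 (4.94).

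**Figure D4:**
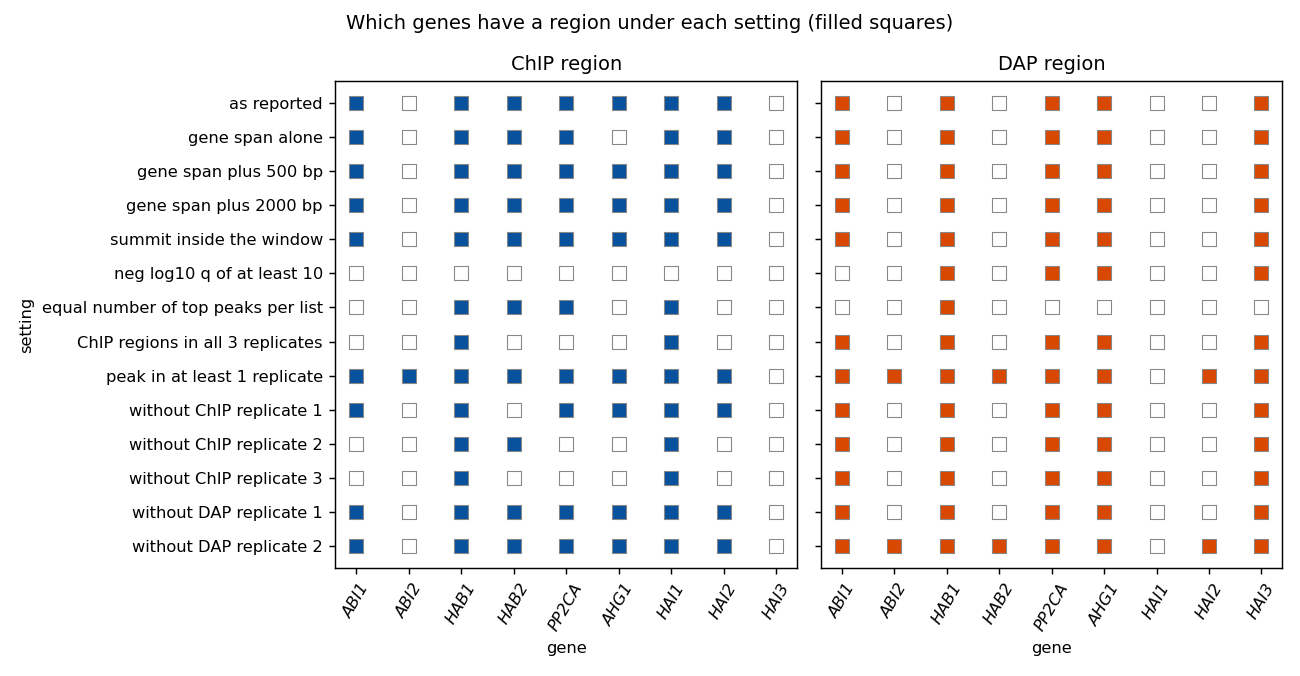
Genes with a reproducible region (filled squares) under each setting, for ChIP at the left and DAP at the right. HAB1 and HAI1 keep a ChIP region under every setting shown except a −log10 q of at least 10, where no gene has one, and HAB1 keeps a DAP region under every setting.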

How the data were processed

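The 9 genes and the lists of other genes were chosen with earlier results of these data known. The submitters' processing notes name BWA, MACS2 and the build TAIR10, without versions. Each deposited list gives for every peak a score, a fold over background (a ratio), the −log10 p-value, the −log10 q-value and the summit's distance from the start, and the authors called each replicate against input, per the labels. Lists were not pooled. The deposited score is 10 times the −log10 q and was not used further. Peaks of the mitochondrion and plastid were left out.

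Peaks were merged where they overlapped by 1 bp, with Python 3.11.15, NumPy 2.4.6, pandas 2.3.3 and SciPy 1.17.1. Genes came from a RefSeq table on TAIR10.1, which gives no strand or exons, so ends are called lower- and higher-coordinate. Its fit was checked: 29.5% of ChIP region summits lay within 300 bp outside a coding gene end, against 14.2% and 14.1% after shifts of 2000 bp. Peak positions are 1-based, on TAIR10.

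Summit pileups assume that MACS2 adds 1 to pileup and background, and a whole number fitted the −log10 p within 0.01 for 100% of peaks of each list with a −log10 p under 200 (14.9% to 25.8% after random shifts). The calls matched 2000 simulated sites with 0 mismatches. These sites lay far apart with at most 1 peak per replicate, so the joining of several peaks of 1 replicate was not checked. All 9 genes were described. Other pathway genes were named where both assays had a region, other PP2C genes as the 3 of highest mean percentile with overlapping regions, and the 2 most alike genes per gene bound in both. A planned motif search needs sequence and was not analysed here. Other windows, thresholds and replicate rules were tried as alternatives.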

Additional observations from a re-analysis of the deposited data

How the results depend on the processing

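No paired analysis was possible because the results come from no test, and ChIP and DAP replicates share only a number. Windows of the gene plus 500 bp or with the summit inside changed no count, and the gene plus 2000 bp gave 3 genes with overlapping regions. Shares in brackets are those of all coding genes in ChIP, DAP and both. For overlapping regions the share of all coding genes, 13.2%, was computed under the main setting only. Counts of overlapping genes under other settings therefore have no background beside them and cannot be read against one. The gene alone gave 6 genes in ChIP, 5 in DAP, 3 in both and 1 overlapping (28.3%, 42.7%, 13.6%). A −log10 q of at least 10 gave 0, 4, 0 and 0 (5.44%, 52.1%, 3.4%). Equal lists of 4187 top peaks gave 4, 1, 1 and 1 (14.7%, 17.1%, 3.17%), and ChIP regions in all 3 replicates gave 2, 5, 1 and 1 (13.6%, 59.9%, 8.85%). A peak in at least 1 replicate gave 8, 8, 7 and 5 (68.7%, 69.2%, 49.7%). With an overlap of 50% of each or summits within 100 bp, 0 genes had overlapping regions. When a ChIP replicate was left out, a peak was needed in both others. This gave 2 genes in ChIP without replicate 3 (13.8% of coding genes) and 3 without replicate 2 (15.9%). Without replicate 1 there were 6 (37.2%), which ended the call of HAB2. When a DAP replicate was left out, a peak in the 1 remaining list was enough. That looser rule gave 8 genes in DAP without replicate 2 (64.4%) and 5 without replicate 1 (64.7%). Leaving out 1 replicate of either assay gave 1 to 6 genes in both, the 6 without DAP replicate 2 (27%), and 1 to 3 overlapping. Mean percentiles moved by more than the replicate SD in 7 of 101 ChIP and 3 of 91 DAP values. These totals include values that could not move, such as DAP percentiles when a ChIP replicate was left out. They also include ABI2, HAB2 and HAI2 in DAP, which had a peak in 1 replicate and so no SD. Among the values that moved was ABI1 in ChIP, 56.8 without the peak whose edge alone touches its window and 85.0 with it. The depth of the libraries is unknown, which limits what a missing peak means.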
